A study of Mus musculus with 22 samples.

Results

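The embryonic ventricular wall has an inner, trabecular layer and an outer, compact layer. The 8 genes described here mark these layers: Nppa, Nppb, Bmp10, Gja5 and Irx3 the trabecular layer, and Hey2, Mycn and Tbx20 the compact layer. They were taken by gene symbol from the 48709 genes in each of 2 count tables, and were chosen with earlier results of these data known. All 8 had a mean count above 1, the minimum for testing, which 19752 genes reached in the first experiment and 17675 in the second.

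RNA was taken from mouse heart ventricles at E13.5, in mid gestation, in 18 libraries with 3 per group, to ask whether the effects of losing the Hippo pathway member SAV1 depend on LIN9, a subunit of the MuvB complex. All embryos carried Nkx2.5-Cre, which acts in early cardiac precursors, on a C57/Bl6 background. The ventricular tissue also held cells other than cardiomyocytes. The first experiment (6 libraries) compared LIN9 KO ventricles, from Lin9 fl/fl embryos with LoxP sites around exon 7, with LIN9 wt ventricles, and Sav1 was wild-type in both. The second experiment (12 libraries) held control ventricles (LIN9 wt with wild-type Sav1), LIN9 KO ventricles with wild-type Sav1, Sav1 KO ventricles (LIN9 wt with Sav1 fl/fl, LoxP sites around exon 3) and double KO ventricles (LIN9 KO with Sav1 KO). The labels call the LIN9 wt genotype wild-type, while the study describes its controls as Lin9 fl/+. Total counts ran from 9485599 to 9615274 per library in the first experiment and from 2770741 to 2999877 in the second. The study counts its LIN9 KO ventricle comparison as 2 biological replicates with triplicates within each, and the labels do not say whether the 3 libraries of a group came from separate embryos. The p-values therefore measure only the spread between these libraries. That spread was uneven. In the second experiment the chi-square per degree of freedom between libraries was 1.22 for controls 2 and 3 and 1.39 to 1.98 within Sav1 KO. For LIN9 KO library 3 it was 21.5 and 15.2 against libraries 1 and 2, and 6.28 between libraries 1 and 2. In the first experiment it was 5.67 to 10.2 in LIN9 wt and 16.2 to 26.2 in LIN9 KO.

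Trabeculae form as cardiomyocytes protrude into the lumen under endocardial Notch and neuregulin signals and their own BMP10, and they slow their division and take up properties of conduction tissue. The compact layer outside them keeps dividing and builds most of the later wall. LIN9 holds together MuvB, which with B-MYB activates genes of mitosis and in other forms represses cell cycle genes, and SAV1 is a scaffold of the Hippo kinases that restrain the co-activator YAP.

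The targeted genes were examined first. Levels are given as CPM, the counts scaled to library size with TMM factors. Those of Lin9 were 29.8, 21.4 and 25.6 in the LIN9 wt and 21.4, 21.3 and 19.2 in the LIN9 KO libraries of the first experiment. In the second experiment Lin9 was at 29.3, 28.1 and 23.2 CPM in the controls, 13.2, 15.4 and 17.9 in LIN9 KO, 19.2, 31.4 and 25.6 in Sav1 KO and 23.5, 26.1 and 18.5 in double KO. Lin9 was below every control library in every LIN9 KO library of the second experiment, whereas the double KO libraries overlapped both the controls and Sav1 KO. Every adjusted p-value below was computed with edgeR (quasi-likelihood F test) and adjusted by Benjamini-Hochberg over the genes tested. The log2 fold change of Lin9 was -0.31 (SE 0.14, edgeR adjusted p = 0.13) in the first experiment, -0.80 (SE 0.19, edgeR adjusted p = 0.0027) in LIN9 KO against control and -0.16 (SE 0.18, edgeR adjusted p = 0.586) in double KO against Sav1 KO. Lin9 was higher in double KO than in LIN9 KO without overlap (log2 fold change 0.56, SE 0.20, edgeR adjusted p = 0.238), although both carry the LIN9 KO label. The counts cover the whole gene while 1 exon is floxed, so they are a loose check of the label. They leave it unchecked for double KO, which below means the libraries labelled so. In the first experiment Lin9 did not pass. The lowest LIN9 wt library there was at 21.40 CPM and the highest LIN9 KO library at 21.36, so the label was hardly checked there either. Sav1 was at 54.5, 56.2 and 61.9 CPM in the controls, 51.9, 49.9 and 47.4 in LIN9 KO, 43.1, 36.1 and 43.0 in Sav1 KO and 44.0, 40.5 and 42.3 in double KO. Every library labelled Sav1 KO or double KO lay below every library of the second experiment with wild-type Sav1, but the log2 fold change of Sav1 in Sav1 KO against control did not pass (-0.50, SE 0.12, edgeR adjusted p = 0.318). It passed in double KO against control (-0.44, SE 0.12, edgeR adjusted p = 0.00873).

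How the reads were counted limits some of these genes. Among protein-coding genes whose exons lay wholly within the span of a gene on the other strand, 92.3% of 849 had 0 counts in the first experiment, against 20.4% of 13953 genes that overlapped no other gene. With the spanning gene on the same strand only, it was 78.9% of 398. There were exceptions, such as Tcf21, which lies wholly within another gene's span and still had 3655 counts in that experiment. Other genes span 69.2% of the exonic length of Nppa (antisense Gm13054), 53.8% of Irx3 (antisense Irx3os) and 95.1% of Gja5 (Gpr89 and 4930573H18Rik together). The counts of these 3 genes may therefore come from part of the transcript, and for Gja5 from a small part. Nppb, Bmp10, Hey2, Mycn and Tbx20 overlap no other gene. Levels are compared between genes, per kb of exonic length, only for those 5.

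The secreted trabecular products were Nppa (atrial natriuretic peptide), Nppb (B-type natriuretic peptide) and Bmp10 (a BMP ligand that sustains growth of the trabecular wall). Nppa was at 471, 563 and 376 CPM in LIN9 wt and 1226, 1575 and 1437 in LIN9 KO of the first experiment. In the second experiment it was at 491, 430 and 473 CPM in the controls, 1802, 1553 and 1350 in LIN9 KO, 346, 244 and 380 in Sav1 KO and 1239, 1394 and 1354 in double KO. All 9 libraries of the LIN9 KO and double KO groups lay above all 9 other libraries, and the 3 Sav1 KO libraries lay below the 3 controls. Nppa rose with a log2 fold change of 1.59 (SE 0.16, edgeR adjusted p = 7.97e-06) in LIN9 KO against LIN9 wt, 1.75 (SE 0.14, edgeR adjusted p = 7.86e-09) in LIN9 KO against control and 2.04 (SE 0.14, edgeR adjusted p = 1.26e-09) in double KO against Sav1 KO. In bulk tissue, a change in the share of cells of a type and a change in RNA per cell cannot be told apart.

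Nppb was at 144, 137 and 164 CPM in LIN9 wt and 403, 433 and 542 in LIN9 KO of the first experiment. In the second it was at 128.0, 134.0 and 122 CPM in the controls, 410.2, 293 and 277 in LIN9 KO, 101, 105 and 125 in Sav1 KO and 403, 310 and 311 in double KO. Again every LIN9 KO and double KO library lay above every other library of its experiment, while Sav1 KO and control overlapped. The log2 fold changes of Nppb were 1.63 (SE 0.13, edgeR adjusted p = 1.36e-06) in the first experiment, 1.35 (SE 0.14, edgeR adjusted p = 1.19e-06) in LIN9 KO against control and 1.63 (SE 0.14, edgeR adjusted p = 1.37e-07) in double KO against Sav1 KO. Nppa and Nppb are neighbours on chromosome 4.

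Bmp10 was at 178, 227 and 151 CPM in LIN9 wt and 195, 317 and 205 in LIN9 KO of the first experiment. In the second it was at 169, 178 and 166 CPM in the controls, 415, 294 and 293 in LIN9 KO, 125, 92.5 and 126 in Sav1 KO and 242, 303 and 271 in double KO. The first experiment overlapped between groups, with the second LIN9 KO library apart from the other 2, whereas in the second experiment LIN9 KO and double KO lay wholly above the controls and the Sav1 KO libraries wholly below them. Bmp10 did not pass the test in the first experiment (log2 fold change 0.37, SE 0.21, 95% confidence interval -0.11 to 0.85, edgeR adjusted p = 0.281). Bmp10 passed there with replicate numbers as a block (edgeR adjusted p = 0.0068). The r of same-numbered libraries was 0.181, 0.042 and 0.166 for replicates 1, 2 and 3. Not every r was over 0.1, the line set for a pairing, so a pairing was not established. Bmp10 rose in the second experiment, by 0.97 (SE 0.14, edgeR adjusted p = 3.34e-05) in LIN9 KO against control and 1.25 (SE 0.14, edgeR adjusted p = 2.27e-06) in double KO against Sav1 KO on the log2 scale. In the first experiment the second library of each group had the highest Bmp10 and the highest Nppa of its group, and also the highest summed atrial markers, 6080 CPM beside 4637 and 4354 in LIN9 wt and 6733 beside 3966 and 4148 in LIN9 KO. Their part in the results for Bmp10 and Nppa was not tested. Whether the LIN9 KO effect on Bmp10 differed between the experiments was not tested.

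Because these 3 genes rose together in the second experiment, their promoters were picked after the values were seen and are shown here, from 250 bases before to 50 bases after the RefSeq start (build GRCm38.p6). The promoters of all 8 genes were searched on both strands for 5 motifs. The cell cycle homology region (CHR) of MuvB targets was read as TTTGAA, which 17.9% of 32851 promoters held. The letters for TEAD factors were GGAATG (14.7% of the promoters), for T-box factors GGTGTGA (3.98% of the promoters), for NKX2-5 TNAAGTG (11.5% of the promoters) and for GATA factors AGATAA (11.2% of the promoters). Capitals mark every match.
Nppa (chr4:148000472-148000771, plus strand): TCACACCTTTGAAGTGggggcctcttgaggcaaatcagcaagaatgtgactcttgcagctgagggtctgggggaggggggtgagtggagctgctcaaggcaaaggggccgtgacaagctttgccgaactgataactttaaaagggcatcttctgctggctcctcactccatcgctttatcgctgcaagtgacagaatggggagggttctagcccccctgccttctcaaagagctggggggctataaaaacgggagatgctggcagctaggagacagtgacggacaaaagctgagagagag
Nppb (chr4:147985650-147985949, plus strand): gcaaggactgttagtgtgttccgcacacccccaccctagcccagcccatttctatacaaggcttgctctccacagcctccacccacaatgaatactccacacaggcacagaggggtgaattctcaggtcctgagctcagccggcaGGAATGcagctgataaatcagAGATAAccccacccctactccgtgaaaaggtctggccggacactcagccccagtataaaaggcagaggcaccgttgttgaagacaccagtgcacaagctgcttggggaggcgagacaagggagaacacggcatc
Bmp10 (chr6:87428744-87429043, plus strand): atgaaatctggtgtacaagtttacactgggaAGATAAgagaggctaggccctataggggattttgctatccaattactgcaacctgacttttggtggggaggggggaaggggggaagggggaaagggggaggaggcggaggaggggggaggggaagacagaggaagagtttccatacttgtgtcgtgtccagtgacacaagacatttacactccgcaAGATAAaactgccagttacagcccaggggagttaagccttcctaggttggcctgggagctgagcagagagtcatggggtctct
The Nppa promoter opens with the T-box letters on the other strand, directly followed by the CHR letters, and the NKX2-5 letters begin within the CHR letters and overlap them. The Nppb promoter held the TEAD and GATA letters and the Bmp10 promoter the GATA letters at 2 places. No motif was held by all 3. Among the other members the Hey2 promoter held the TEAD letters and the Mycn promoter the CHR letters, and those of Gja5, Irx3 and Tbx20 held none of the 5. A match describes these letters and is not evidence of binding.

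The other trabecular members, Irx3 and Gja5, are described apart from these 3, a split made after the values were seen. Irx3 encodes a homeodomain factor of the trabecular wall and the conduction system. It was at 26.3, 27.2 and 27.1 CPM in LIN9 wt and 13.7, 9.65 and 10.7 in LIN9 KO of the first experiment, and at 26.3, 27.1 and 23.5 in the controls, 13.8, 10.2 and 10.8 in LIN9 KO, 22.2, 17.9 and 19.1 in Sav1 KO and 11.9, 6.69 and 9.61 in double KO of the second. Every LIN9 KO and double KO library lay below every library with LIN9 wt, and Sav1 KO lay between. Irx3 fell by 1.25 (SE 0.14, edgeR adjusted p = 2.93e-05), 1.14 (SE 0.20, edgeR adjusted p = 6.72e-05) and 1.06 (SE 0.21, edgeR adjusted p = 0.000389) on the log2 scale in the first experiment, in LIN9 KO against control and in double KO against Sav1 KO.

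Gja5 encodes connexin 40, a gap junction protein of trabecular and conduction cardiomyocytes. Its counts were 48, 45 and 33 in LIN9 wt and 14, 25 and 6 in LIN9 KO of the first experiment, and 13, 9 and 15 in the controls, 1, 6 and 7 in LIN9 KO, 7, 12 and 21 in Sav1 KO and 7, 3 and 8 in double KO of the second. All LIN9 KO and double KO libraries were below the controls of their experiment, but double KO overlapped Sav1 KO. The test passed in the first experiment (log2 fold change -1.46, SE 0.36, edgeR adjusted p = 0.01). In LIN9 KO against control it was -1.37 (SE 0.52, edgeR adjusted p = 0.0553, and 0.0328 once replicate numbers entered as a block or 0.0235 with no filter on low counts) and in double KO against Sav1 KO -1.09 (SE 0.48, edgeR adjusted p = 0.105).

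**Figure D1:**
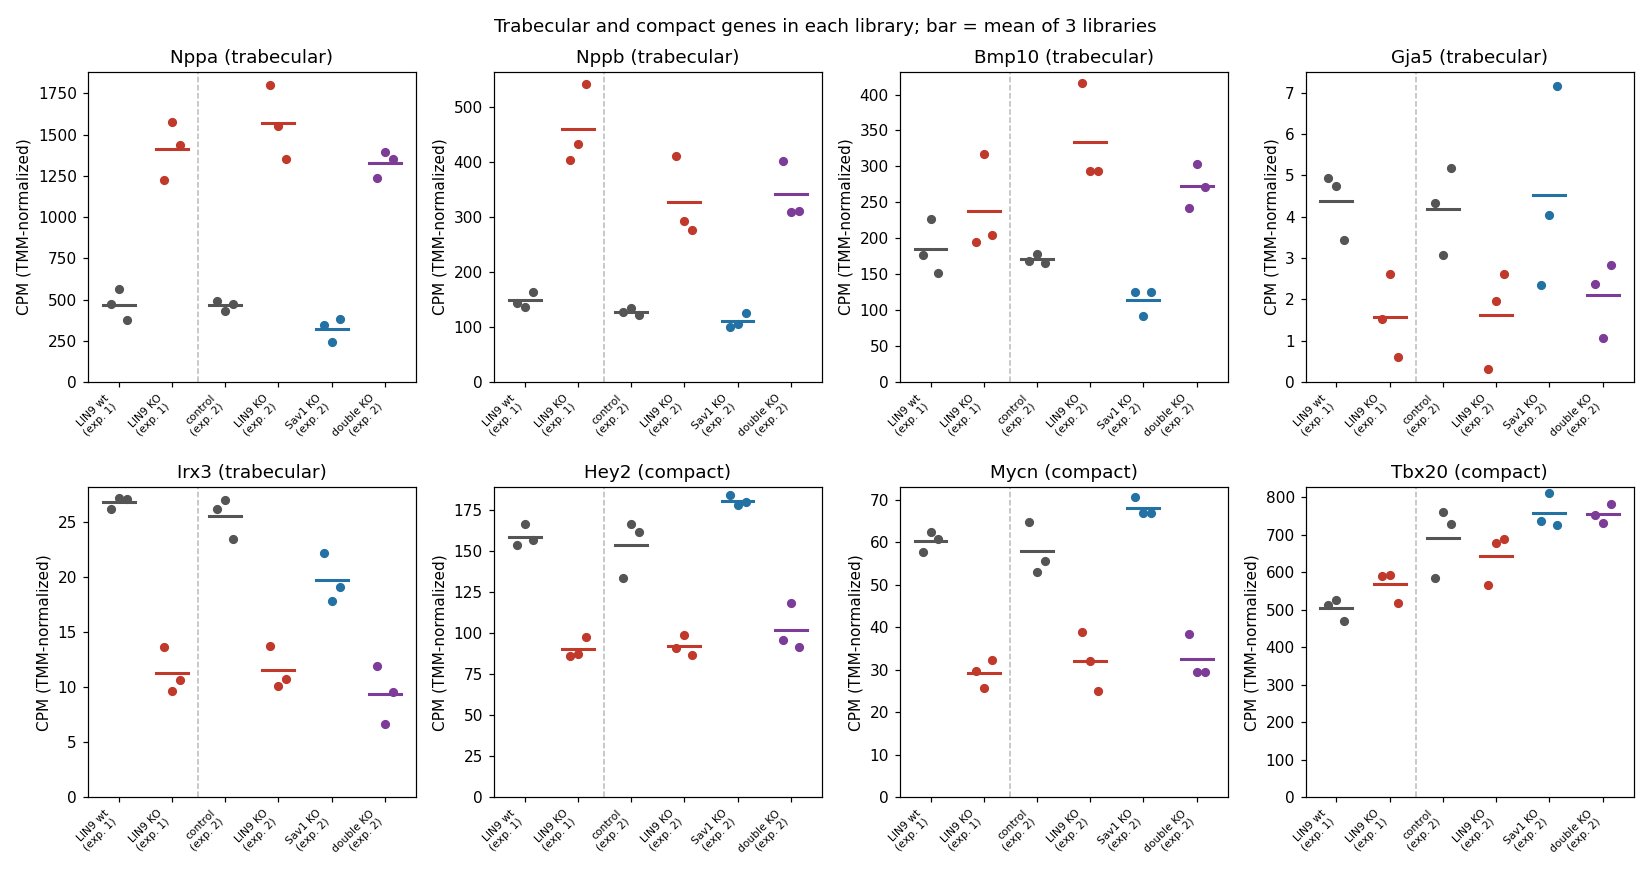
Level of each gene in every library, as TMM-scaled CPM on a linear axis from 0, for 2 groups of the first experiment and 4 of the second; points are libraries and bars the means of 3. Nppa and Nppb are high, and Irx3, Hey2 and Mycn low, in every LIN9 KO and double KO library, while Tbx20 overlaps between LIN9 KO and control.

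Of the compact members, Hey2 is a hairy-related repressor that keeps trabecular genes out of the compact wall. It was at 154, 166 and 157 CPM in LIN9 wt and 86.3, 87.3 and 97.5 in LIN9 KO of the first experiment. In the second it was at 134, 167 and 162 CPM in the controls, 91.0, 98.7 and 86.5 in LIN9 KO, 184, 178 and 180 in Sav1 KO and 95.8, 119 and 91.8 in double KO. LIN9 KO and double KO lay wholly below the controls and Sav1 KO wholly above them. Hey2 fell by 0.81 (SE 0.10, edgeR adjusted p = 4.97e-05), 0.74 (SE 0.11, edgeR adjusted p = 1.16e-05) and 0.82 (SE 0.11, edgeR adjusted p = 2.28e-06) on the log2 scale in the first experiment, in LIN9 KO against control and in double KO against Sav1 KO.

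Mycn encodes N-MYC, which drives growth and division of compact cardiomyocytes. It was at 57.7, 62.3 and 60.7 CPM in LIN9 wt and 29.7, 25.7 and 32.3 in LIN9 KO of the first experiment, and at 64.8, 53.1 and 55.7 in the controls, 38.8, 32.2 and 25.0 in LIN9 KO, 70.7, 66.9 and 66.9 in Sav1 KO and 38.5, 29.6 and 29.5 in double KO of the second. The groups ordered as for Hey2, without overlap between libraries with and without the LIN9 KO. Mycn fell by 1.04 (SE 0.11, edgeR adjusted p = 1.41e-05), 0.85 (SE 0.15, edgeR adjusted p = 6.58e-05) and 1.06 (SE 0.14, edgeR adjusted p = 2.55e-06) on the log2 scale in the same 3 comparisons.

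Tbx20, a T-box factor that supports cardiomyocyte proliferation, differed little. It was at 514, 527 and 470 CPM in LIN9 wt and 591, 593 and 519 in LIN9 KO of the first experiment, and at 585, 760 and 728 in the controls, 565, 678 and 689 in LIN9 KO, 737, 810 and 726 in Sav1 KO and 753, 732 and 782 in double KO of the second. The LIN9 KO libraries overlapped those without it in both experiments. Its log2 fold change was 0.17 (95% confidence interval -0.07 to 0.42) in the first experiment, -0.10 (-0.32 to 0.12) in LIN9 KO against control and 0.00 (-0.22 to 0.21) in double KO against Sav1 KO.

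Counted together, 6 of 8 genes passed the threshold of 0.05 on the edgeR adjusted p in the first experiment, where 20.9% of all genes tested did. Of the 6, Nppa and Nppb were higher and Gja5, Irx3, Hey2 and Mycn lower; 11.1% of all genes were higher and 9.78% lower. In LIN9 KO against control, 6 of 8 passed where 23.2% of all genes did, with Nppa, Nppb and Bmp10 higher (12.8% of all genes) and Irx3, Hey2 and Mycn lower (10.5%). In double KO against Sav1 KO, 6 of 8 also passed, beside 23.4% of all genes, with 3 higher (11.8%) and 3 lower (11.6%). In double KO against control, 6 of 8 passed, where 20.6% of all genes did, with 3 higher (10.7%) and 3 lower (9.96%). The controls enter several of these comparisons, so the comparisons are not independent of one another. The 8 genes were chosen with earlier results of these data known. The shares, here and below, are over genes of all levels and were not matched to the members. By level in the first experiment the members ran from rank 72 (Nppa) to rank 13272 (Gja5) of 19752 genes.

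**Figure D2:**
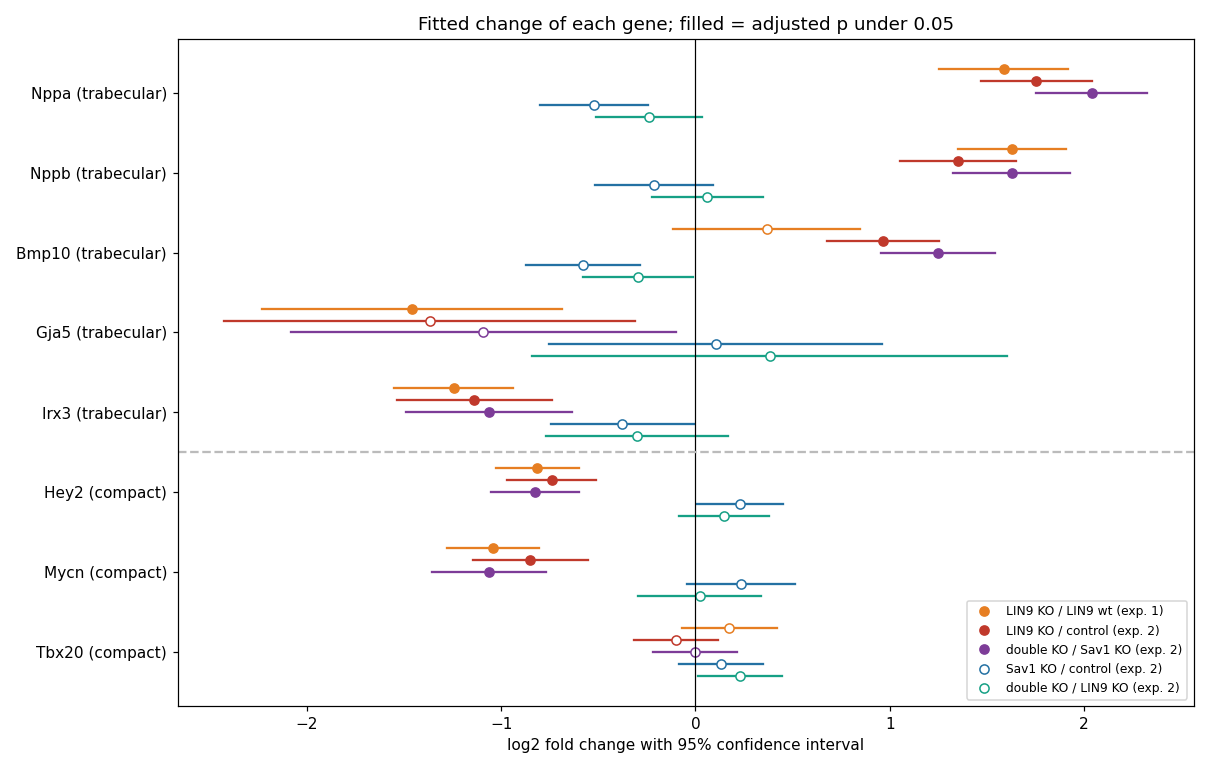
Fitted log2 fold change of each gene (points) with its 95% confidence interval (lines) in 5 comparisons, with filled points for an edgeR adjusted p under 0.05. The 3 comparisons of LIN9 KO with LIN9 wt backgrounds put Nppa and Nppb to the right of 0 and Irx3, Hey2 and Mycn to the left, while no point is filled in the 2 comparisons of Sav1.

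The Sav1 comparisons gave no member past the threshold. With edgeR, 0 of 8 passed in Sav1 KO against control, where 0.017% of all genes did, with 4 of 8 at an unadjusted p under 0.05 (693 of all 17675 genes) and 0 of 8 by DESeq2. Even so, the Sav1 KO and control libraries did not overlap for 5 of the 8, compared with 12.1% of all genes. These were Nppa, Bmp10 and Irx3, with log2 fold changes of -0.52 (SE 0.13, edgeR adjusted p = 0.55), -0.58 (SE 0.14, edgeR adjusted p = 0.502) and -0.38 (SE 0.18, edgeR adjusted p = 0.999), and Hey2 and Mycn, at 0.23 (SE 0.11, edgeR adjusted p = 0.999) and 0.24 (SE 0.14, edgeR adjusted p = 0.999). The sums of 2 marker lists also did not overlap between these groups. Endocardial and endothelial markers were at 1055 to 1141 CPM in Sav1 KO and 1218 to 1254 in the controls, and smooth muscle markers at 1642 to 1708 and 1409 to 1476. The smooth muscle sum hardly rested on Myh11, with 93 counts over the second experiment beside 32501 for Acta2. The part of these 2 marker lists in the values of the 5 genes was not tested. Bmp10 passed when the fit held only these 2 groups (edgeR adjusted p = 0.0124, with 31 of all genes passing), and Nppa and Bmp10 passed when low counts were not filtered (edgeR adjusted p = 0.00076 and 0.000367, with 22 of all genes passing). In double KO against LIN9 KO, 0 of 8 passed, where 0.0113% of all genes did, with 2 of 8 at an unadjusted p under 0.05 (2093 of all 17675 genes) and 0 of 8 by DESeq2. The share over all genes there rested on 2 genes, and these became 309 with no filter on low counts, 84 with the replicate block and 11 by DESeq2, while still 0 of 8 passed. Only Tbx20 of the 8 had groups that did not overlap in that comparison (log2 fold change 0.23, edgeR adjusted p = 0.39), beside 15.1% of all genes. The interaction of LIN9 and Sav1, which asks whether the Sav1 effect differs with LIN9, passed for 0 of 8, as for 0% of all genes, with 0 of 8 at an unadjusted p under 0.05 (1156 of all 17675 genes) and 0 of 8 by DESeq2. Its 95% confidence interval for Nppa ran from -0.11 to 0.68 on the log2 scale, so differences within it were not excluded.

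A summary per library was taken as the mean log2 CPM of the list minus its mean in the controls or LIN9 wt libraries of the same experiment. Over the 5 trabecular genes it was 0.12, 0.39 and -0.02 in LIN9 KO of the first experiment and 0.36, 0.32 and 0.34 in LIN9 KO, -0.41, -0.52 and -0.09 in Sav1 KO and 0.37, 0.08 and 0.34 in double KO of the second. Over the 3 compact genes it was -0.55, -0.61 and -0.52, then -0.53, -0.49 and -0.67, 0.22, 0.22 and 0.17, and -0.37, -0.41 and -0.50 in the same groups. The trabecular mean thus joined genes that rose and genes that fell, and the compact mean was below every control library in each LIN9 KO and double KO library and above all controls in each Sav1 KO library.

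**Figure D3:**
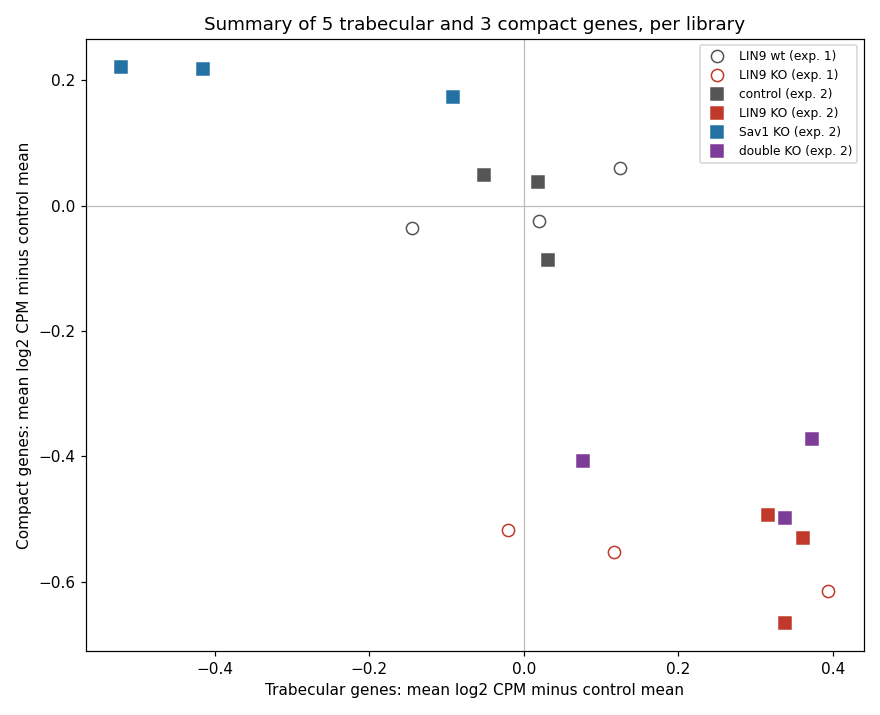
Mean log2 CPM of the 5 trabecular genes (horizontal) and of the 3 compact genes (vertical), each minus its mean in the control or LIN9 wt libraries of the experiment; each point is a library. LIN9 KO and double KO libraries lie at compact values from -0.67 to -0.37 and the Sav1 KO libraries from 0.17 to 0.22.

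Per kb of exonic length, the level in the controls of the second experiment was highest for Nppb (164 ± 7.59 CPM per kb, SD, n = 3), followed by Tbx20 (57.6 ± 7.76), Bmp10 (38.1 ± 1.40), Hey2 (33.5 ± 3.87) and Mycn (17.6 ± 1.87). Bmp10 and Hey2 were neighbours whose difference was close to the spread of Hey2. In LIN9 KO the order per kb was Nppb (418 ± 93.3), Bmp10 (74.4 ± 15.7), Tbx20 (53.7 ± 5.73), Hey2 (20.1 ± 1.35) and Mycn (9.70 ± 2.1), so Bmp10 stood above Tbx20. This held in no other group without overlap: Tbx20 and Bmp10 were not apart in double KO (63.0 ± 2.11 and 60.6 ± 6.79) or in LIN9 KO of the first experiment (47.3 ± 3.53 and 53.2 ± 15.1). The first experiment gave the order Nppb (190.1 ± 18.1), Tbx20 (42.0 ± 2.49), Bmp10 (41.2 ± 8.52), Hey2 (34.6 ± 1.45) and Mycn (18.3 ± 0.71) in LIN9 wt, with neither Tbx20 and Bmp10 nor Bmp10 and Hey2 apart.

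Genes of the pathways around these members are given next, for LIN9 KO against control in the second experiment, where the median log2 fold change of all genes was 0.01, with 12.8% of all genes higher and 10.5% lower. Lists of few genes can lie near those shares, and no list was tested as a set. The part that the cell types given further below had in these lists was not tested. Of 25 BMP pathway genes, 12 were higher and 3 lower (median 0.34), among them the ligands Bmp6 (1.66, SE 0.15) and Bmp4 (1.33, SE 0.15) and the inhibitory Smad7 (1.45, SE 0.12), all higher. Of 17 Notch pathway genes, 8 were higher and 1 lower (median 0.36), with the receptor Notch3 at 1.44 (SE 0.15), the ligand Dll1 at -1.39 (SE 0.28) and Numbl at 1.00 (SE 0.15). Of 6 neuregulin pathway genes, 2 were higher and 1 lower (median -0.03): the receptors Egfr (1.48, SE 0.24) and Erbb2 (-0.59, SE 0.13) and the ligand Nrg1 (0.53, SE 0.13).

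Among genes for processing and reception of natriuretic peptides, 3 of 9 tested were higher and 1 lower (median 0.09). The proteases Mme (0.83, SE 0.20), Pcsk6 (0.78, SE 0.22) and Furin (0.58, SE 0.17) were the higher ones, and none of the 10 passed in the first experiment. The other trabecular and conduction genes gave 1 of 9 higher and 3 lower (median -0.12), with Irx4, a ventricular factor, at -1.52 (SE 0.14), Cited1 at -0.88 (SE 0.14) and Irx6 at 1.10 (SE 0.31). In the first experiment Irx6 was at 0.08 and did not pass, with 0 of 10 genes higher and 6 lower. Of 5 connexins tested, Gja4 was higher (1.51, SE 0.14) and Gja1 lower (-0.93, SE 0.10).

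Of 17 T-box and core cardiac factors tested, 2 were higher and 3 lower (median -0.03). Prdm16, a regulator of the compact wall, was at -1.09 (SE 0.13), Myocd at -1.26 (SE 0.12) and Gata5 at 1.01 (SE 0.16). Of 10 genes of the MYC network, 4 were higher and 1 lower (median 0.38), with the antagonist Mxi1 at 0.92 (SE 0.12), Mxd3 at -0.76 (SE 0.23) and Myc at 0.50 (SE 0.15). Trabecular matrix genes gave 6 of 8 higher and 0 lower (median 0.52), led by Fbln1 at 1.14 (SE 0.15), Adamts5 at 1.02 (SE 0.14) and Has2 at 0.66 (SE 0.19). Growth signals of the compact wall gave 6 of 14 higher and 0 lower (median 0.40), with Vegfa at 1.14 (SE 0.19), Aldh1a2 at 0.99 (SE 0.17) and Wnt2b at 0.96 (SE 0.21). Aldh1a2 is counted among the epicardial markers below as well. The other comparisons of LIN9 KO gave partly different counts. Of all genes, 11.1% were higher and 9.78% lower in the first experiment (median 0.02). In double KO against Sav1 KO these shares were 11.8% and 11.6% (median 0.03), and several of the counts below lie near such shares. In the first experiment and in double KO against Sav1 KO, the compact wall growth signals had 5 and 3 of 14 higher and 1 lower in each (medians 0.35 and 0.09), and the MYC network 3 and 1 of 10 higher and 1 lower in each (0.12 and 0.14). The neuregulin pathway had 2 and 3 of 6 higher and 1 lower in each (0.00 and 0.59), and the Notch pathway 6 and 4 of 17 higher and 1 and 0 lower (0.17 and 0.27). The BMP pathway had 14 and 12 of 25 higher and 3 lower in each (0.36 and 0.41), and the trabecular matrix 5 of 8 higher and 0 lower in each (0.66 and 0.65). The natriuretic peptide genes had 0 of 10 and 3 of 9 higher and 0 and 1 lower (0.11 and 0.34), the other trabecular and conduction genes 0 of 10 and 0 of 9 higher and 6 and 3 lower (-0.48 and -0.33), and the connexins 2 of 6 and 1 of 5 higher and 2 lower in each (0.02 and -0.80). The T-box and core factors had 5 and 2 of 17 higher and 5 and 4 lower (0.01 and -0.04).

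In Sav1 KO against control none of these lists held a gene that passed.

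For each member, the 2 genes most alike in log2 CPM over the 12 libraries of the second experiment were taken from 12361 genes with a mean of at least 5 CPM. For Nppa they were Scara3 (Pearson r = 0.989, and 0.988 over the 6 libraries of the first experiment) and Tram1 (0.988, 0.902). For Nppb they were Calu (0.982, 0.977) and Sost (0.982, 0.979), and for Bmp10 Itga6 (0.979, 0.91) and Tor4a (0.971, 0.526). Hey2 was most like Myh7b (0.985, 0.958) and Lgr4 (0.985, 0.948), Mycn like Fxyd1 (0.994, 0.958) and Ndufs7 (0.987, 0.953), and Irx3 like Ppp1r2 (0.969, 0.976) and Tmem182 (0.968, 0.949). For Gja5 they were Myg1 (0.917, 0.184) and Abracl (0.905, 0.446), and for Tbx20 Fubp1 (0.958, 0.544) and Srsf11 (0.953, 0.606). The r of these genes in the first experiment was 0.606 or less, as was that of Tor4a with Bmp10. Every other gene named here except Ppp1r2 also had a lower r in the first experiment than in the second. The libraries fall into groups with and without the LIN9 KO, and r within these groups was not computed.

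Markers of cell types moved with the LIN9 KO, so their summed CPM is given beside the members. Among 5 ventricular cardiomyocyte markers (most abundant gene Myh7, with 75.3% of its exonic length within other genes' spans), 4 were lower and 0 higher in LIN9 KO against control, with Myl2 at -1.65, Irx4 at -1.52 and Myl3 at -1.10. Their sum was 12110, 12340 and 12520 CPM in LIN9 wt and 5304, 5739 and 5020 in LIN9 KO of the first experiment, and 13260, 12600 and 12670 in the controls, 6981, 5845 and 4507 in LIN9 KO, 14090, 12730 and 13260 in Sav1 KO and 5364, 5913 and 6040 in double KO of the second. Every library with the LIN9 KO was below every other library. Among 7 markers of all cardiomyocytes (most abundant gene Tnnt2), 5 of 6 tested were lower, with Tnni1 at -1.21, Tnni3 at -1.05 and Actn2 at -0.76; Actc1, whose exons lie wholly within another gene's span, was at 0 in every library. Their sum was 9912, 11370 and 11480 CPM in the controls and 5349, 5224 and 5996 in LIN9 KO, 11200, 11900 and 12470 in Sav1 KO and 6212, 6725 and 6797 in double KO, and 9132, 8836 and 9574 against 4880, 5687 and 4680 in the first experiment.

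Markers of other cells were higher. Among 7 fibroblast and cushion mesenchyme markers (most abundant gene Col3a1), 6 were higher and 0 lower, and their sum was 2438, 2623 and 2446 CPM in the controls, 5097, 5266 and 4225 in LIN9 KO, 2477, 2821 and 2375 in Sav1 KO and 4288, 4737 and 5448 in double KO, and 2093, 1903 and 1817 against 3813, 4155 and 3899 in the first experiment. Among 7 epicardial markers (most abundant gene Upk3b), 6 were higher and 0 lower, with a sum of 281, 291 and 294 CPM in the controls, 554, 537 and 594 in LIN9 KO, 257, 282 and 299 in Sav1 KO and 484, 532 and 509 in double KO, and 329, 311 and 306 against 583, 560.2 and 654 in the first experiment. Both sums separated libraries with the LIN9 KO from those without it.

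Erythroid genes rose most. Of 8, 7 were tested and all 7 were higher, the most abundant being Hbb-y, and Alas2 was at 0 in every library. Their sum was 2874, 2246 and 2376 CPM in the controls, 14480, 20770 and 26610 in LIN9 KO, 1867, 1679 and 2264 in Sav1 KO and 20270, 12810 and 6946 in double KO, and 6290, 4634 and 4297 against 62770, 33030 and 24040 in the first experiment. Haemoglobin genes took 3.52% to 8.64% of all counts in LIN9 KO and 0.785% to 1.11% in LIN9 wt of the first experiment. In the second they took 0.422% to 0.544% in the controls, 2.13% to 3.75% in LIN9 KO, 0.331% to 0.432% in Sav1 KO and 1.04% to 3.1% in double KO. Macrophage markers (most abundant gene Csf1r) gave 4 of 5 higher, with a sum of 54.2, 48.7 and 52.6 CPM in the controls, 118, 94.8 and 99.9 in LIN9 KO, 45.8, 46.3 and 55.6 in Sav1 KO and 97.5, 124 and 125 in double KO, and 42.3, 44.6 and 45.1 against 87.5, 104 and 91.8 in the first experiment. The sums of both lists were higher in every library with the LIN9 KO than in any without.

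The remaining lists changed less. Of 9 endocardial and endothelial markers (most abundant gene Npr3 in the second experiment and Pecam1 in the first), 3 were higher and 1, Kdr at -0.83, was lower. Their sum was 1218, 1254 and 1235 CPM in the controls, 1464, 1364 and 1293 in LIN9 KO, 1141, 1055 and 1123 in Sav1 KO and 1183, 1368 and 1399 in double KO, and 1273, 1412 and 1100 against 1284, 1672 and 1292 in the first experiment. Of 9 atrial markers (most abundant gene Myh6 in the second experiment and Myl4 in the first), 2 were higher, Sln at 1.56 and Dkk3 at 1.22, and 0 lower. Their sum was 5607, 5309 and 5205 CPM in the controls, 4991, 4311 and 5123 in LIN9 KO, 5288, 5589 and 5927 in Sav1 KO and 3658, 4579 and 5821 in double KO, and 4637, 6080 and 4354 against 3966, 6733 and 4148 in the first experiment. Of 4 smooth muscle markers (most abundant gene Acta2), Tagln, with 67.9% of its exonic length within other genes' spans, was higher (1.07) and Acta2 lower (-0.32). Myh11 held only 108 counts over the first experiment and 93 over the second. The sum of the 4 markers was 1476, 1423 and 1409 CPM in the controls, 1723, 1504 and 1406 in LIN9 KO, 1642, 1708 and 1689 in Sav1 KO and 1642, 1506 and 1724 in double KO, and 1501, 1684 and 1422 against 1984, 2050 and 2248 in the first experiment. The part of these cell types in the changes of the 8 genes was not tested.

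**Figure D4:**
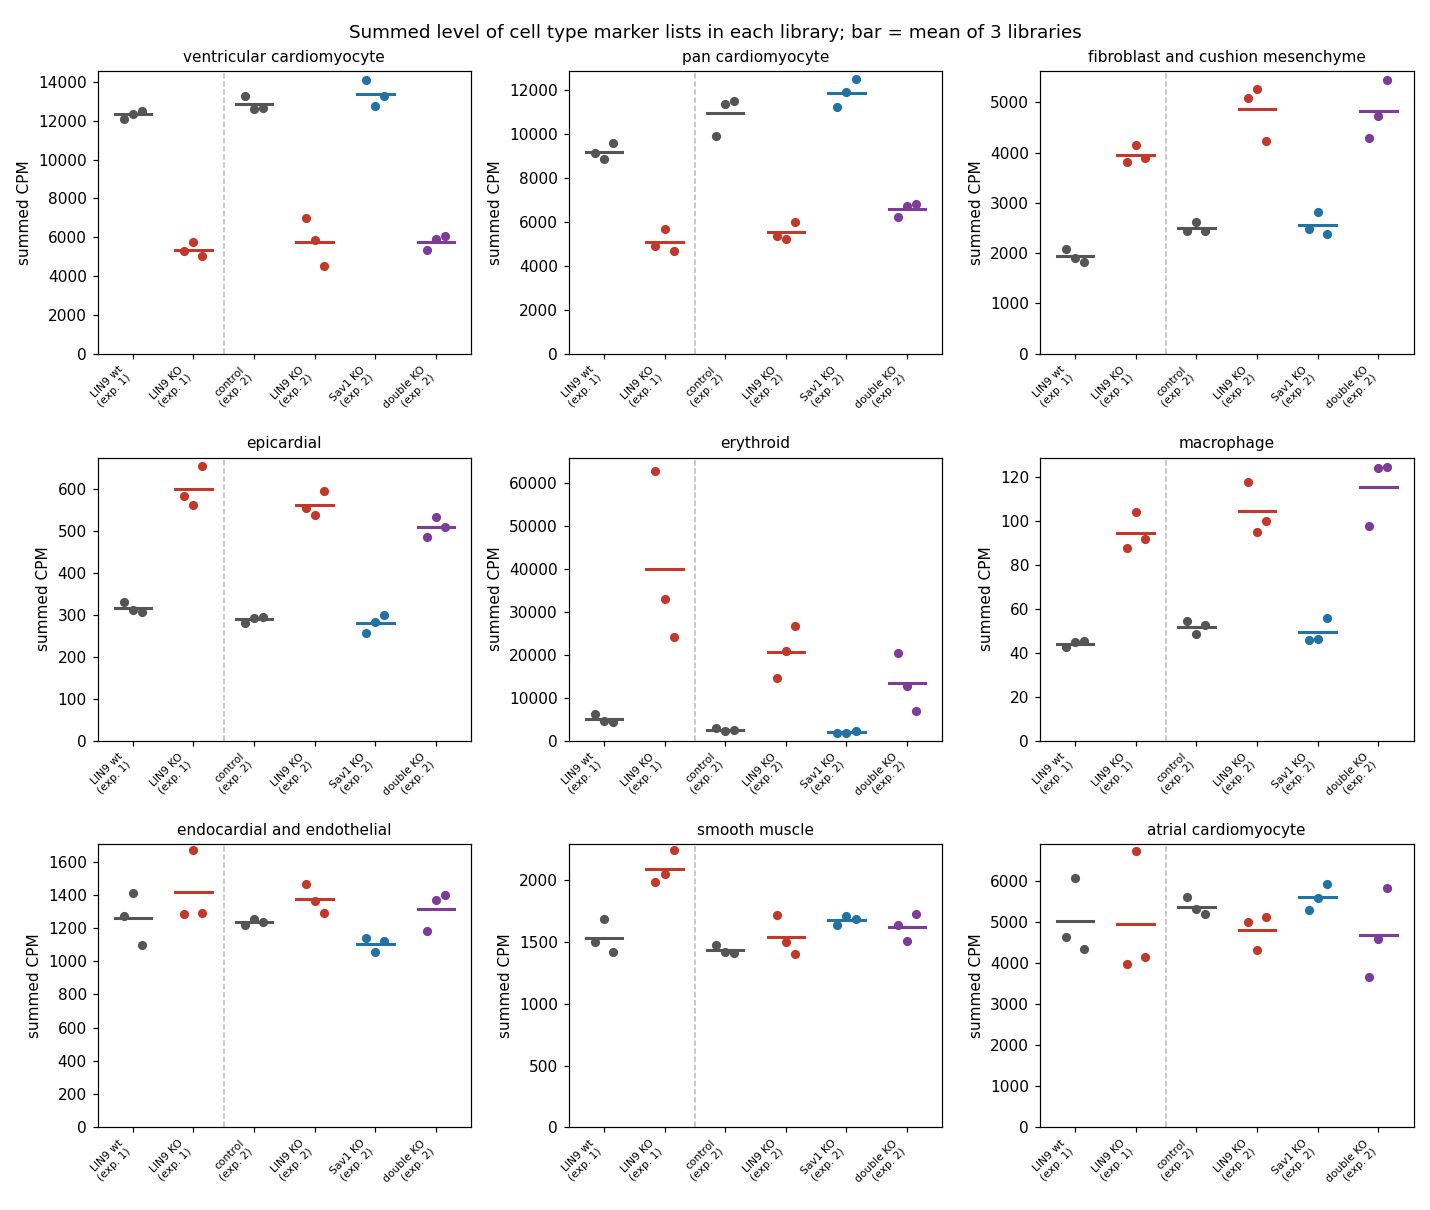
Summed TMM-scaled CPM of each cell type marker list in every library, on a linear axis from 0; points are libraries and bars the means of 3. Ventricular and pan cardiomyocyte sums are low and fibroblast, epicardial, erythroid and macrophage sums high in every LIN9 KO and double KO library.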

How the data were processed

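Read counts per Ensembl gene were deposited by the authors, who aligned reads to mm10 with TopHat 2.1.0 and Bowtie2, reduced all samples to the mappable reads of the smallest and counted with summarizeOverlaps. The 18 ventricular RNA libraries were used; ChIP samples were not. Genes with a mean count above 1 were scaled by TMM and tested with edgeR 4.0.16 (R 4.3.3, robust quasi-likelihood, earlier method), with Benjamini-Hochberg adjustment over all genes tested and a threshold of 0.05. The second experiment was a single fit of 4 groups. DESeq2 1.42.0 served as an alternative. Log2 CPM used a prior count of 2. In the second experiment 1 count was 0.328 to 0.373 CPM. Code was tested on simulated data. Same-numbered libraries deviated together (every r over 0.1, genes with a mean count above 10) only for LIN9 KO and control of the second experiment (r 0.217 to 0.6); the labels give no pairing. Members and lists were chosen with earlier results of these data known. Named list genes were at most 3 per list, with the largest absolute change among genes past the threshold in LIN9 KO against control and a mean of at least 5 CPM; likeness named the 2 highest r per member. Exceptions, named after their values were seen, were the genes overlapping the members and Irx6 in the first experiment. Also named outside this rule were the most abundant gene of each marker list, Actc1 and Alas2 for their 0 counts, Myh11 for its low counts, and Tcf21 as a counting example. Limiting levels per kb to genes without overlap was decided after the overlap check, and changed the plan.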

Additional observations from a re-analysis of the deposited data

How the results depend on the processing

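Of the 8 genes, 6 or 7 passed under every alternative in LIN9 KO against LIN9 wt and in LIN9 KO against control, and the number was unchanged in double KO against Sav1 KO, in double KO against control, in double KO against LIN9 KO and in the interaction. In Sav1 KO against control it went from 0 to 2 with no filter on low counts and to 1 in a fit on the 2 groups only. With no filter, the genes called rose to 22 in Sav1 KO against control, 309 in double KO against LIN9 KO and 17 in the interaction; edgeR's prior degrees of freedom were then infinite in the second experiment, against 20.3 with the filter. The fit on the 2 groups only gave 31 and 0 genes in the first 2 of these, against 3 and 2 in the 4-group fit. In double KO against LIN9 KO, DESeq2 called 11 genes, the edgeR 4 quasi-likelihood method 0, and that method with no filter 19; the cause was not tested. Leaving out the haemoglobin genes moved no count past 1.5 times. This and the edgeR 4 settings were added after results were seen.

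The replicate number as a block pairs libraries by number, and only LIN9 KO and control of the second experiment had every r over 0.1. Sav1 KO against control (r 0.089 to 0.302) was borderline: an earlier look with another set of genes put it just over the line. The block brought Gja5 past the threshold in LIN9 KO against control (adjusted p = 0.0328) and Bmp10 in the first experiment (adjusted p = 0.00675), moved the genes called in double KO against LIN9 KO to 84, and changed no other call of the 8 genes.

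Leaving out a library at a time, the genes called ranged from 2722 to 4223 in the first experiment (4131 with all libraries), 0 to 2 in Sav1 KO against control, 0 to 378 in double KO against LIN9 KO and 0 to 64 in the interaction. Directions reversed only for log2 fold changes that passed in no such fit: Gja5 in Sav1 KO against control (-0.39 to 0.40), Nppb (-0.084 to 0.267), Gja5 (-0.11 to 0.84) and Mycn (-0.13 to 0.19) in double KO against LIN9 KO, Tbx20 in double KO against Sav1 KO (-0.047 to 0.044), and Gja5 (-0.20 to 0.77), Irx3 (-0.13 to 0.28) and Hey2 (-0.195 to 0.026) in the interaction. The cause was not tested.

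The second experiment held at most 2999877 counts per library, so Gja5 rested on 1 to 21 counts there. The 3 libraries of a group were not shown to be separate embryos. With 3 per group, a gene that did not pass was not shown to be unchanged. Cell composition was not separated from RNA per cell, and gene overlaps limit the counts of Nppa, Irx3, Gja5 and some markers such as Myh7.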
